A study of Mus musculus with 6 samples.

Results

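The BEX, TCEAL and GPRASP genes are small groups of related genes that lie close together on the X chromosome. BEX proteins (brain-expressed X-linked) are short adaptor proteins, and Bex1 is known to bind the intracellular part of the p75 neurotrophin receptor and calmodulin and to appear in regenerating muscle. TCEAL proteins resemble the transcription elongation factor TFIIS, while GPRASP proteins bind the tails of G protein-coupled receptors and help to direct internalised receptors to lysosomes. The 9 genes described here are Bex1, Bex2, Bex4, Tceal1, Tceal5, Tceal8, Gprasp1, Gprasp2 and Bhlhb9, out of 27131 genes in the count table. They were found by symbol and had been chosen with their values in this same comparison known, so their differences between the groups are given as a description, with no test.

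RNA was sequenced from levator ani/bulbocavernosus muscle, which lies in the male pelvis and depends on androgen. There were 3 wild-type mice (WT) and 3 knock-in mice labelled 113Q, which model spinal and bulbar muscular atrophy (SBMA); all were 14 weeks old and ate standard chow. SBMA is an inherited disease of motor neurons and muscle. The labels give no strain, litter or batch, and whether 113Q mice carry any allele beyond the knock-in is not given in the sources used here. Each library is 1 mouse, so the SDs below describe the spread between mice. The SEs describe the precision of fitted log2 fold changes.

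Levels are CPM (counts scaled to a common library size) with TMM factors, a correction that sets most genes equal between libraries. The estimated counts summed to between 43581087 and 73873481 per library. The TMM factors ran from 0.768 to 0.794 in WT and from 1.26 to 1.32 in 113Q, so this scaling follows the group. Without it, log2 fold changes are higher by 0.72 at the median gene. Of 16960 genes tested with edgeR's quasi-likelihood test (Benjamini-Hochberg adjusted p below 0.05), 2791 (16.5%) were higher and 3078 (18.1%) were lower in 113Q, and library totals alone gave 11015 and 710. All 12 fast fibre genes of the muscle marker list were abundant, with summed levels of 228867 to 247400 CPM in WT against 53164 to 65319.6 CPM in 113Q. Epcam, an epithelial gene, was at or near 0 in WT mice 1 and 3 and in 113Q mouse 1, and measured 3.83, 8.29 and 10.2 CPM in WT mouse 2 and 113Q mice 2 and 3. In a fit with a term for the libraries that hold them, the median log2 fold change of the members was 2.28, against 2.14 without it.

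All 9 genes lie within 0.97 Mb of the X chromosome (GRCm38, the assembly of mm10, GENCODE M21 annotation). In order along it are Gprasp1 at chrX:135742733-135803474, Bhlhb9 at chrX:135797594-135891081, Gprasp2 at chrX:135839034-135844730, Bex2 at chrX:136066564-136068236 and Bex4 at chrX:136138996-136140443. Tceal8 at chrX:136168984-136172342, Tceal5 at chrX:136200948-136203876, Bex1 at chrX:136213972-136215513 and Tceal1 at chrX:136707982-136711478 follow. Bex1, Bex2, Tceal5 and Tceal8 are on the minus strand and the other 5 on the plus strand.

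The sequences upstream of these genes show how the cluster repeats itself. Promoter windows of 250 bases before to 50 after each annotated start came from RefSeq (GRCm38.p6), matched by symbol for all 9 members. The windows of Bex1 and Bex4 aligned with 287 identical bases of 290 (99.0%), and those of Gprasp2 and Bhlhb9 with 266 of 294 (90.5%). The 100 bases just before the start of each are printed 5′ to 3′ to show the likeness of the copies, with capitals where the paired sequences differ. The Bex1 stretch is chrX:136215514-136215613 (minus strand), the Bex4 stretch chrX:136138896-136138995 (plus), the Gprasp2 stretch chrX:135838934-135839033 (plus) and the Bhlhb9 stretch chrX:135885751-135885850 (plus). Their annotated starts sit at slightly different places in the shared sequence, so the stretches are offset by a few bases.
Bex1: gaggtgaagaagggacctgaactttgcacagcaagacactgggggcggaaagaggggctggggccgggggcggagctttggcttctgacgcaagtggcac
Bex4: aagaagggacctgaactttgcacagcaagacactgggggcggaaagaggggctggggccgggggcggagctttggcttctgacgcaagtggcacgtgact
Gprasp2: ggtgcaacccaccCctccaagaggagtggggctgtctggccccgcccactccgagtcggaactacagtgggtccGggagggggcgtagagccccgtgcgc
Bhlhb9: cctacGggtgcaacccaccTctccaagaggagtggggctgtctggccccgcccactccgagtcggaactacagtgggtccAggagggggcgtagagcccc

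A pair of short motifs recurs in these windows. TGACG, the core letters of cyclic AMP response elements, is followed after 7 or 9 bases by CACGTGA, which holds the E-box CACGTG. The letters were picked after looking at the family's own promoters, and the search, on both strands, allowed a spacer of 5 to 12 bases. The composite is in the windows of Bex1, Bex4, Tceal1, Tceal5 and Tceal8, and not in those of Bex2, Gprasp1, Gprasp2 and Bhlhb9. Among 32851 RefSeq promoter windows of the same length it is in 31 (0.094%), where TGACG alone is in 20.812% and CACGTGA alone in 3.765%. Of these 31 windows, 13 belong to the members and related genes and 18 to other genes, so the 31 include the source of the letters. Bex1 and Bex4 are near copies and not separate matches. The pieces below show the composite in each of the 5 members, with both motifs in capitals, and in Bex3 and Armcx1, which are relatives outside the member list.
Bex1: cTGACGcaagtggCACGTGAct
Bex4: cTGACGcaagtggCACGTGAct
Tceal1: gTGACGcgctcccctCACGTGAcc
Tceal5: gTGACGttcctgtCACGTGAtc
Tceal8: aTGACGcgatcctCACGTGAcc
Bex3: gTGACGcagggccctCACGTGAcc
Armcx1: gTGACGtgcccctCACGTGAgc

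The pieces lie at chrX:136215508-136215529 (Bex1), chrX:136138974-136138995 (Bex4), chrX:136707966-136707989 (Tceal1), chrX:136203891-136203912 (Tceal5), chrX:136172226-136172247 (Tceal8), chrX:136270265-136270288 (Bex3) and chrX:134717922-134717943 (Armcx1). Of the 12 relatives outside the member list that had a promoter window, 6 hold the composite: Bex3, Tceal3, Tceal6, Armcx1, Armcx4 and Armcx6. Armcx3, Tceal2 and Tceal4 had no window under their symbols and were not searched. A match describes letters only. The members that hold it differed widely in level and fold: Tceal5 was 8.38-fold higher in 113Q, Tceal1 was slightly lower, and Bex4 was close to 0 in every library. Gprasp2, with the highest fold of the members, has none in its window.

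In 113Q muscle, 6 of the 7 members with enough counts to be fitted were higher in every 113Q mouse than in any WT mouse. Such separation was seen in 4260 (25.1%) of all genes tested, and nothing is read from the members' count, because they were chosen on this comparison. The median log2 fold change of the 7 was 2.14 (range -0.17 to 3.39), beside 0.01 for all genes tested. Bex2 and Bex4 had too few counts for the filter, so these 7 are not all members.

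**Figure D1:**
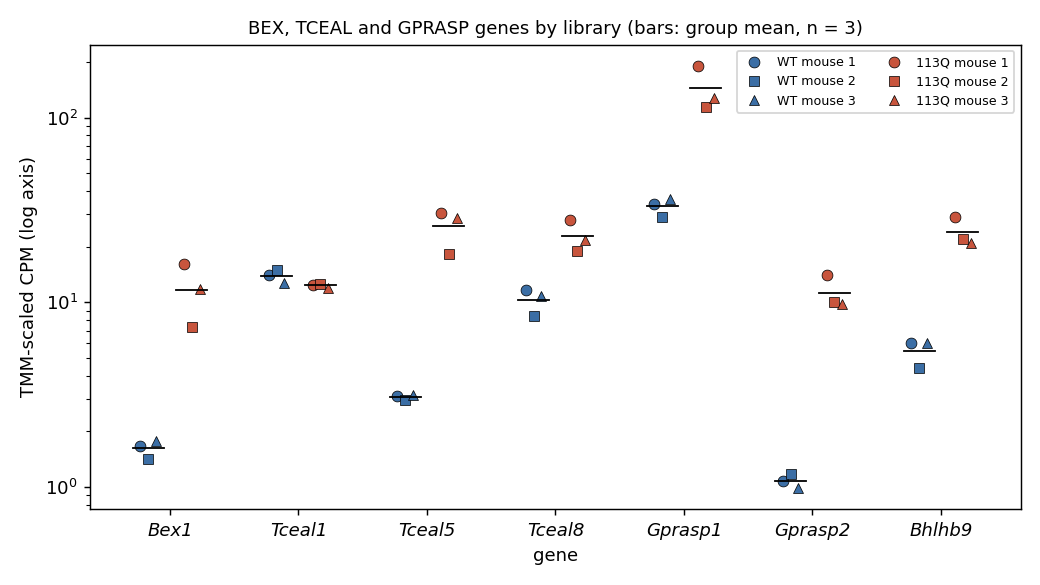
TMM-scaled CPM (log axis) of each member that passed the filter in each library, with symbols for mice 1, 2 and 3 of each group and a bar at the group mean (n = 3). The 113Q points lie above all WT points for 6 genes, and for Tceal1 they lie between 12 and 12.6 CPM, below the WT points.

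Among the BEX genes, Bex1 was the only member above trace level. Its estimated counts were 56, 75 and 92 in WT against 1429, 653 and 1101 in 113Q, equal to 1.66, 1.42 and 1.77 CPM and to 16.0, 7.30 and 11.8 CPM. The lowest 113Q mouse was still 4.12-fold above the highest WT mouse, yet the 113Q mice differed widely among themselves. The mean went from 1.61 ± 0.182 to 11.7 ± 4.33 CPM (SD, n = 3 per group), a 7.24-fold difference and a log2 fold change of 2.86 ± 0.29 (SE). Of the 50-base stretches in Bex1 transcripts, 30.91% also occur, on either strand, in another gene's transcripts. These include 16.0% in Bex4 and 12.4% in Tceal7, whose exons overlap Bex1 on the opposite strand. Whether the counting used strand is not given in the sources used here, so reads of Bex1 and Tceal7 in that overlap cannot be told apart.

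Bex2 had 4, 0 and 4 counts in WT and 3, 4 and 7 in 113Q, and Bex4 had 1, 1 and 0 against 0, 0 and 1. Summed over a group, Bex2 had 8 counts in WT and 14 in 113Q, and mean levels of 0.0651 and 0.0511 CPM. Bex4 had 2 and 1, both under the floor of 3 counts, so no fold is given. Neither gene showed a difference that this depth could resolve, which is a limit of detection and not evidence of absence. Bex4 shares 25.8% of its 50-base stretches with Bex1, so the division of such reads by the authors' counting may affect both. RefSeq lists Bex1 as an older name of Bex2 and Bex4 as an older name of Bex1, and the table gives no coordinates, so the rows were matched by their current symbols.

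The TCEAL members each behaved in their own way. Tceal5 measured 3.11, 2.96 and 3.12 CPM in WT against 30.3, 18.3 and 28.5 CPM in 113Q. The WT mice were nearly equal, with a coefficient of variation of 2.85%, and the 113Q mice spread more widely (25.2%). The mean went from 3.06 ± 0.0873 to 25.7 ± 6.47 CPM, 8.38-fold, with a log2 fold change of 3.07 ± 0.20. Tceal5 shares 21.2% of its 50-base stretches with Tceal6 and 20.4% with Tceal3, and those genes had 36 and 741 counts in 113Q against 7005 for Tceal5. The division of shared reads by the authors' counting may affect all of these counts.

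Tceal8 was higher by a smaller factor, from a higher base. It measured 11.7, 8.38 and 10.8 CPM in WT against 27.8, 18.9 and 21.8 CPM in 113Q, or 10.3 ± 1.73 and 22.8 ± 4.51 CPM on average (2.22-fold, log2 fold change 1.15 ± 0.18). The groups did not overlap, and the lowest 113Q mouse stood 1.61-fold above the highest WT mouse.

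Tceal1 was the member that did not go up. It measured 14.0, 15 and 12.7 CPM in WT against 12.4, 12.6 and 12 CPM in 113Q, with means of 13.9 ± 1.16 and 12.4 ± 0.302 CPM (log2 fold change -0.17 ± 0.11). Its 113Q mice were the most alike of any member, with a coefficient of variation of 2.44%. All 113Q values lay just below the WT values, but this small difference depends on the scaling: with library totals alone the log2 fold change is 0.55, less than the 0.72 by which that scaling lifts the median gene. Tceal1 shares no 50-base stretch with any other gene.

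The GPRASP genes were all higher in 113Q. Gprasp1, a sorting protein for G protein-coupled receptors, was the most abundant member, at 34.1, 28.8 and 36.4 CPM in WT against 191, 114 and 127 CPM in 113Q. The 113Q mouse 1 library stood well above its 2 partners. The mean went from 33.1 ± 3.87 to 144 ± 41.5 CPM, 4.35-fold, with a log2 fold change of 2.12 ± 0.21.

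Gprasp2, its close relative, had the largest fold of the members. It measured 1.07, 1.17 and 0.982 CPM in WT against 14.0, 9.96 and 9.75 CPM in 113Q. The lowest 113Q mouse was 8.33-fold above the highest WT mouse. The mean went from 1.07 ± 0.0943 to 11.2 ± 2.39 CPM, 10.5-fold (log2 fold change 3.39 ± 0.21), which placed Gprasp2 at rank 82 of the 16960 genes by fold change.

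Bhlhb9, also known as Gprasp3, measured 5.98, 4.4 and 6.01 CPM in WT against 29.0, 22.1 and 20.9 CPM in 113Q. Its mean went from 5.46 ± 0.922 to 24.0 ± 4.38 CPM, 4.4-fold, with a log2 fold change of 2.14 ± 0.18. On the plus strand, exons of Gprasp1 overlap those of Armcx5 and Bhlhb9, and exons of Gprasp2 overlap those of Bhlhb9, so reads there could be divided between these genes. The overlap covers 492 of the 8119 exon bases of Gprasp1 (with Armcx5 and Bhlhb9), 376 of 4540 in Gprasp2 (with Bhlhb9) and 412 of 4800 in Bhlhb9 (with Gprasp1 and Gprasp2). Gprasp1 and Armcx5 share 1 annotated start and identical promoter windows (300 bases).

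The order of the members by fold was Gprasp2, Tceal5, Bex1, Bhlhb9, Gprasp1, Tceal8 and Tceal1. Neighbours among Gprasp2, Tceal5 and Bex1 had overlapping intervals of 1 SE, as did Bhlhb9 and Gprasp1. Tceal8 lay clearly below these, and Tceal1 below Tceal8. By rank among all genes tested, Tceal5 stood at 114, Bex1 at 149, Bhlhb9 at 303, Gprasp1 at 310, Tceal8 at 1140 and Tceal1 at 10844.

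Levels of different genes were compared per kilobase of annotated exon. In WT, Tceal1 was highest at 4.96 ± 0.414 CPM per kb, with Gprasp1 at 4.08 ± 0.477 and Tceal8 at 4.02 ± 0.674 CPM per kb, and Gprasp1 and Tceal8 did not differ beyond their SD. Tceal5 followed at 2.43 ± 0.0691, Bex1 at 1.36 ± 0.153, Bhlhb9 at 1.14 ± 0.192 and Gprasp2 at 0.236 ± 0.0208 CPM per kb. In 113Q the order was another one: Tceal5 led at 20.3 ± 5.13, then Gprasp1 at 17.8 ± 5.11, Bex1 at 9.85 ± 3.65, Tceal8 at 8.91 ± 1.76, Bhlhb9 at 5.0 ± 0.913, Tceal1 at 4.41 ± 0.108 and Gprasp2 at 2.47 ± 0.526. Tceal1, with similar levels in both groups, was first in WT and sixth in 113Q, although in 113Q it lay within the SD of Bhlhb9 and in WT its SD interval overlapped that of Gprasp1 and Tceal8. Gprasp2 stayed last in spite of the largest fold. Tceal5 and Gprasp1, and Bex1 and Tceal8, lay within each other's SD in 113Q.

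**Figure D2:**
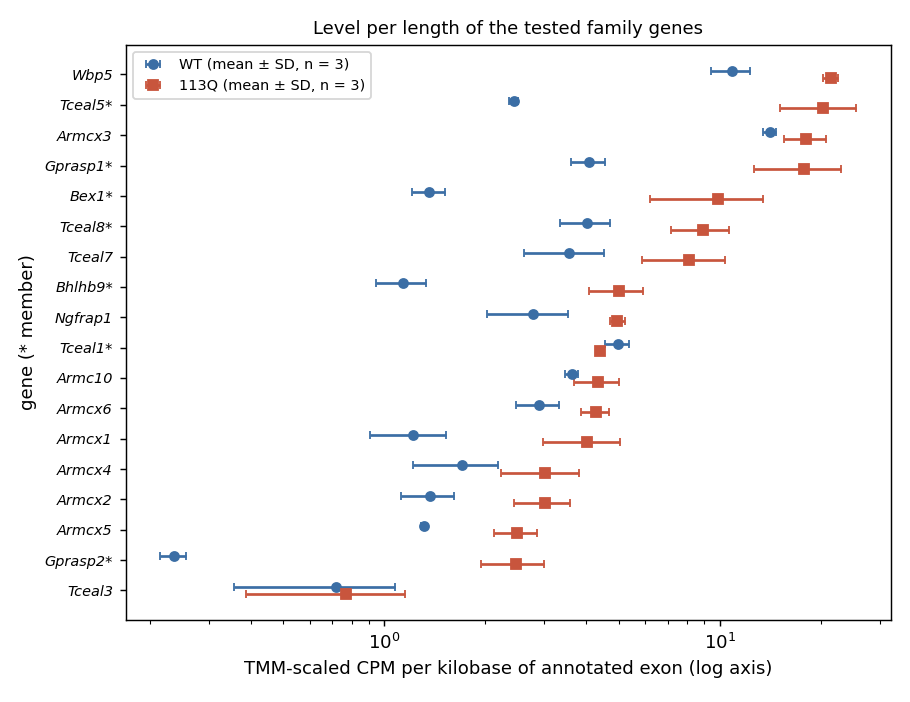
TMM-scaled CPM per kilobase of exon (log axis, mean ± SD, n = 3) in WT and 113Q for the 7 members that passed the filter (asterisks) and the tested relatives. Gprasp2 goes from 0.236 to 2.47 and Tceal5 from 2.43 to 20.3, while Tceal1 lies at 4.96 and 4.41.

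The 113Q mice were not alike. Mouse 1 was highest for 6 of the 7 members, all but Tceal1, and mouse 2 was lowest for 4: Bex1, Tceal5, Tceal8 and Gprasp1. Mouse 1 exceeded mouse 2 by 2.19-fold for Bex1, 1.68-fold for Gprasp1, 1.66-fold for Tceal5, 1.47-fold for Tceal8, 1.40-fold for Gprasp2 and 1.31-fold for Bhlhb9, and Tceal1 was nearly equal (0.981). Replicates have no order, and no sample was left out on this ground. The neuron marker list was also highest in mouse 1 and lowest in mouse 2 of the 113Q mice: its 18 genes summed to 30.3, 19.2 and 26.8 CPM, against 12.7, 11.3 and 14.9 CPM in WT. Uchl1 alone carried this: without it the sum was 7.85, 7.24 and 8.04 CPM in 113Q and 6.99, 6.13 and 9.22 CPM in WT, with mouse 1 no longer highest and the groups overlapping. Of these 18, 9 were tested, 2 rose (Uchl1 and Rbfox3), 1 fell (Th) and 6 did not pass (median log2 fold change 0.06). The share that rose was 22.2%, beside 16.5% of all genes tested. Only 1 gene rose without WT mouse 1, WT mouse 2, 113Q mouse 1 or 113Q mouse 2, and none fell without WT mouse 1, WT mouse 3, 113Q mouse 1 or 113Q mouse 2. Uchl1, an abundant neuronal ubiquitin hydrolase, measured 5.69, 5.17 and 5.68 CPM in WT against 22.4, 11.9 and 18.8 CPM in 113Q (adjusted p = 0.000883). Of the other markers, 9 did not pass the filter and measured no more than 0.250 CPM in any library, among them Snap25, Syt1 and Chat, which was at 0 in every library. Syp (1.12 to 2.52 CPM) and Stmn2 (1.38 to 2.42 CPM) were detected in all libraries. The order with mouse 1 highest and mouse 2 lowest was not particular to the neuron list. In 113Q mice 1, 2 and 3, Schwann cell markers summed to 259, 184 and 207 CPM and fibroblast markers to 2125, 1566 and 1704 CPM. Macrophage markers summed to 83.0, 74.6 and 81.6 CPM. The satellite, smooth muscle, endothelial, adipocyte, epithelial and fast fibre sums did not have this order. Of the smooth muscle sums (7445, 7395 and 6555 CPM), Des alone was 4105, 5043 and 4777 CPM. Epithelial markers were lowest in mouse 1, with sums of 1.53, 52.4 and 98.6 CPM in 113Q mice 1, 2 and 3. The part of nerve-derived transcripts in the members' values was not tested, and in bulk muscle RNA a change in the number of cells of a type and a change in RNA per cell cannot be told apart. Acta2, a smooth muscle gene that was also highest in 113Q mouse 1, measured 46.4, 126 and 184 CPM in WT against 867, 566 and 425 CPM in 113Q.

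**Figure D3:**
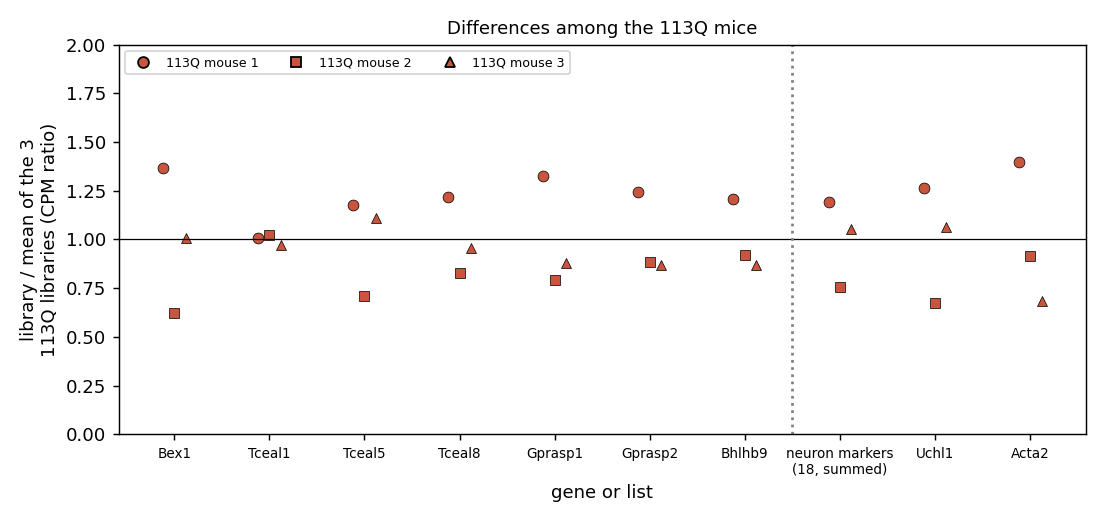
Each 113Q library divided by the mean of the 3 113Q libraries (CPM ratio), for the 7 members, the summed neuron markers, Uchl1 and Acta2. Mouse 1 is the highest symbol for every member but Tceal1, and the 3 symbols of Tceal1 lie close together at 1.

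Profiles across the 6 libraries, each centred on its own mean on the log2 scale, were compared by their root mean square difference, which describes likeness and carries no test. The closest members were Gprasp1 and Bhlhb9 (0.12), then Bex1 and Tceal5 (0.19) and Tceal5 and Gprasp2 (0.27), and the farthest were Tceal1 and Gprasp2 (1.76). Of 9469 other genes with a mean of at least 5 CPM, the nearest to Bex1 were Frmpd1 (0.31), Slc25a34 (0.32), Klhl13 (0.33), Hs6st2 (0.34) and Tm6sf1 (0.36). Klhl13 and Hs6st2 are X-linked too. Klhl13, a ubiquitin ligase adaptor, went from 7.02 ± 1.68 to 72.7 ± 19.2 CPM. Nearest to the median profile of the members were Ncam1 (0.20), Myf5 (0.21), Cpeb1 (0.22), Chrna1 (0.22) and Skap2 (0.22). Ncam1, a cell adhesion gene known to go up in denervated fibres, went from 5.16 ± 0.608 to 22.1 ± 2.42 CPM, and Myf5, a myogenic factor of satellite cells, from 2.57 ± 0.190 to 11.6 ± 0.745 CPM.

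The relatives that the member list leaves out were tested over the whole table. Of 8 further BEX and TCEAL genes, 6 were in the table and 4 passed the filter, of which 3 rose and 0 fell in edgeR, DESeq2 and voom (median log2 fold change 0.91). Of all genes tested, 16.5% rose and 18.1% fell in edgeR. At an unadjusted p below 0.05 the edgeR counts were also 3 and 0. Tceal7, described in myoblasts and the gene that overlaps Bex1, rose from 4.34 ± 1.15 to 9.87 ± 2.75 CPM (2.28-fold, edgeR adjusted p = 0.00904). Wbp5, the older name of Tceal9, rose from 11.3 ± 1.51 to 22.2 ± 1.12 CPM (1.96-fold, edgeR adjusted p = 0.000545). Ngfrap1, the older name of Bex3 and a p75 receptor adaptor, rose from 2.69 ± 0.730 to 4.82 ± 0.250 CPM (1.79-fold, edgeR adjusted p = 0.018), a call lost without WT mouse 3 (0.0589), 113Q mouse 1 (0.0524) or 113Q mouse 2 (0.0556). Tceal3 measured 2.55 ± 1.28 and 2.73 ± 1.36 CPM, with WT mouse 1 at 1.13 CPM and 113Q mouse 1 at 4.30 CPM at the extremes (edgeR adjusted p = 0.903). Bex6, on chromosome 16, had 2 counts in WT and 0 in 113Q, and Tceal6 had 7 and 36. These genes are what remained after the members had been picked, so their count is conditioned on that choice.

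The ARMCX genes, which encode armadillo-repeat proteins of the mitochondrial surface and lie beside the members, were partly higher in 113Q. Of the 6 Armcx genes and Armc10, their relative on chromosome 5, all 7 were tested, 5 rose and 0 fell (median log2 fold change 0.82), and at an unadjusted p below 0.05 edgeR gave 6 and 0. With the 4 tested BEX and TCEAL relatives, 8 of 11 rose in edgeR, 9 in DESeq2 and 7 in voom, and 0 fell in any of them. The edgeR shares of all genes tested were 16.5% higher and 18.1% lower. Armcx1 rose from 3.95 ± 1.00 to 13.0 ± 3.35 CPM (3.29-fold, edgeR adjusted p = 0.00119), Armcx2 from 6.22 ± 1.12 to 13.7 ± 2.63 CPM (2.20-fold, 0.00239) and Armcx5 from 5.55 ± 0.106 to 10.6 ± 1.58 CPM (1.91-fold, 0.00183). Armcx5 shares 8.5% of its 50-base stretches with the member Gprasp1. Gprasp1 had 4571 counts in WT and 39194 in 113Q, against 771 and 2881 for Armcx5. The division of shared reads by the authors' counting may therefore affect the rise of Armcx5, which was not tested. The 2 smaller rises were less steady. Armcx3, a mitochondrial transport gene, went from 49.9 ± 2.29 to 64.1 ± 9.09 CPM (edgeR adjusted p = 0.0331) and its p lay between 0.0626 and 0.0969 when any WT mouse, 113Q mouse 1 or 113Q mouse 3 was left out. Armcx6 went from 7.18 ± 1.05 to 10.6 ± 0.996 CPM (0.0204), and its p was 0.0531 without WT mouse 1, 0.0651 without WT mouse 3 and 0.0775 without 113Q mouse 3. Armcx4 (log2 fold change 0.82 ± 0.26, adjusted p = 0.0515) and Armc10 (0.27 ± 0.13, adjusted p = 0.153) did not pass in edgeR, and Armcx4 passed in DESeq2 (0.00346) and without WT mouse 3 (0.0308) or 113Q mouse 2 (0.0235).

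The genes of other families around the members were counted in the same way. Within 1 Mb of the outermost members lie 34 such genes, of which 14 were tested: 2 rose (14.3%, beside 16.5% of all genes tested) and 0 fell by the edgeR test, with a median log2 fold change of -0.02. The share that rose was near that of all genes tested. At an unadjusted p below 0.05 edgeR gave 3 and 1, voom gave 1 rise and 1 fall, and library totals alone gave 6 rises. Rab9b, a small GTPase of the Rab family, had the largest fold of the region, at 0.118, 0.113 and 0.212 CPM in WT against 3.80, 1.82 and 2.66 CPM in 113Q. It rose 18.7-fold on average (log2 fold change 4.19 ± 0.41, edgeR adjusted p = 0.000198), and mouse 1 was again highest and mouse 2 lowest of the 113Q mice. Its WT levels were far below those of any fitted member, so the size of this fold rests on few counts and is uncertain. Zmat1, a zinc finger gene, rose 1.88-fold (edgeR adjusted p = 0.0383), but its p was between 0.0533 and 0.122 when WT mouse 1, 2 or 3 or 113Q mouse 1 or 2 was left out. Next to Tceal1, Morf4l2 was at a log2 fold change of -0.06 ± 0.10, not past the threshold. Between the outermost members, Arxes2 was the only tested gene of another family (0.43 ± 0.50, not past the threshold). Over all X-linked genes outside the member, BEX, TCEAL and ARMCX lists, the 14 above included, 109 of 533 tested genes rose (20.5%) and 76 fell, with a median log2 fold change of 0.16; this list was added after the data had been seen. Library totals alone turned these counts to 361 and 13, and 48 fell without 113Q mouse 3.

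**Figure D4:**
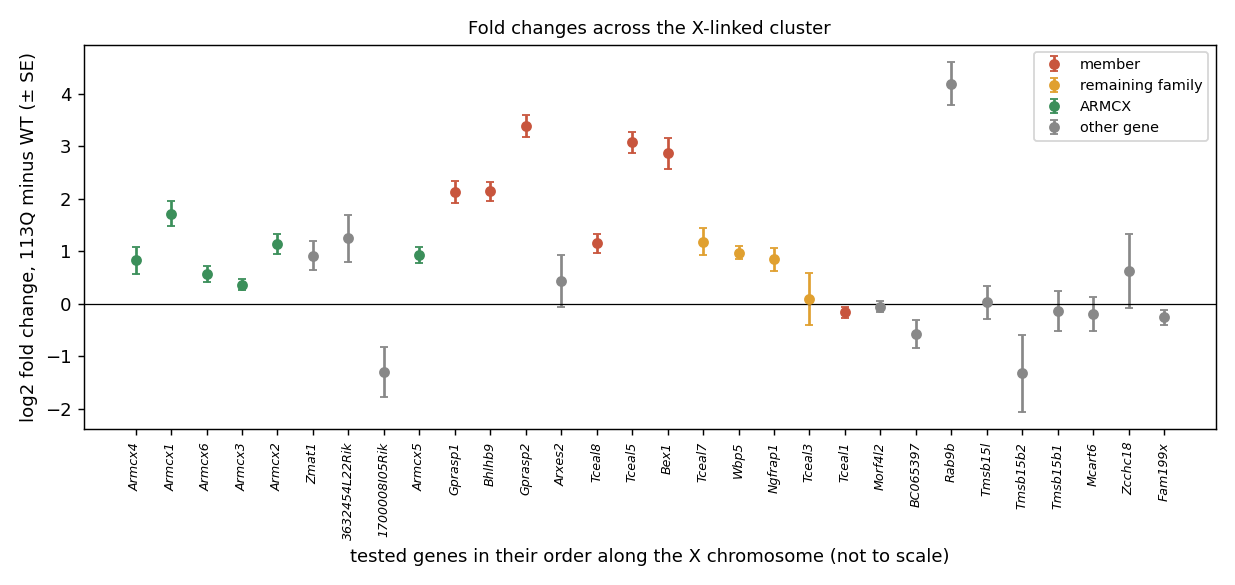
Log2 fold change, 113Q minus WT, with its SE, for 30 tested genes of the region in their order along the X chromosome (not to scale), coloured by member, remaining family, ARMCX and other gene. Members from Gprasp1 to Bex1 lie between 1.15 and 3.39, Tceal1 lies at -0.17, and Rab9b stands alone among the other genes at 4.19.

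The 18 genes outside these families with the composite promoter motif were also looked up, again as a list made after the data had been seen. Of the 15 in the table, 13 were tested: 2 rose (Pafah1b2, 27.6 ± 1.41 to 40.8 ± 4.06 CPM, and Pepd, 34.0 ± 3.22 to 42.3 ± 3.26 CPM) and 1 fell (Ube2b, 464 ± 41.3 to 274 ± 21.7 CPM). The share that rose was 15.4%, beside 16.5% of all genes tested, and the median log2 fold change was -0.00. The largest of the rises, that of Pafah1b2, had a log2 fold change of 0.56. The 13 genes may not all have separate sites, because close neighbours can share 1. By annotated coordinates Pafah1b2 ends at 46012690 and Sik3, also on the list, starts at 46012820. B230119M05Rik, another gene on the list, ends at 134686462, and the Armcx4 piece starts at 134686501. Leaving out WT mouse 2 or 3, or 113Q mouse 2 or 3, left 1 gene higher, and leaving out WT mouse 1 gave 2 lower. Library totals alone gave 10 higher and 0 lower. The fitted family genes with the motif ran in log2 fold change from -0.17 (Tceal1) to 3.07 (Tceal5), and the members among them were chosen on this comparison. Bex1 was at 2.86, Armcx1 at 1.71, Tceal8 at 1.15, Bex3 at 0.84, Armcx4 at 0.82, Armcx6 at 0.56 and Tceal3 at 0.09. Bex4 and Tceal6 did not pass the filter.

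Partners of the members' known pathways moved in both directions, as did all genes tested (16.5% higher and 18.1% lower in edgeR). The share that rose was 34.8% for p75 receptor signalling, 35.7% for receptor sorting and 18.5% for elongation. The elongation share was near that of all genes tested. Of 23 tested genes of p75 receptor signalling, the pathway of Bex1 and Bex3, 8 rose, 2 fell and 13 did not pass (median log2 fold change 0.37), with 5 higher when 113Q mouse 2 was left out. Library totals alone gave 21 higher and 1 lower. Sort1, the co-receptor sortilin, rose from 46.3 ± 3.13 to 123 ± 13.0 CPM (edgeR adjusted p = 4.35e-05), and Maged1, an X-linked adaptor of the p75 receptor, from 49.3 ± 8.04 to 149 ± 15.5 CPM (9.07e-05). Ngfr, the p75 receptor itself, measured 2.66, 2.91 and 3.43 CPM in WT against 2.67, 4.25 and 3.9 CPM in 113Q, so the groups overlapped. Calm2, a calmodulin gene, fell from 221 ± 14.7 to 134 ± 2.73 CPM (edgeR adjusted p = 0.000361), a direction that library totals alone turn to a log2 fold change of 0.01.

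Of 28 tested genes of G protein-coupled receptor sorting, the process of Gprasp1 and Gprasp2, 10 rose, 4 fell and 14 did not pass (median log2 fold change 0.22), and library totals alone gave 26 higher and 1 lower. Adrbk2, a receptor kinase, fell from 23.9 ± 5.54 to 5.67 ± 1.23 CPM (edgeR adjusted p = 0.000301), and Stambp, an endosomal deubiquitinase, rose from 12.4 ± 0.289 to 20.7 ± 0.722 CPM (0.000545). Becn1, an autophagy gene, rose from 77.2 ± 3.24 to 106 ± 3.01 CPM (edgeR adjusted p = 0.00183). Rab7, a late endosome GTPase, fell from 100.4 ± 6.31 to 63.3 ± 2.63 CPM (0.00049), with a log2 fold change of 0.06 under library totals alone.

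Of 27 tested elongation genes, the process TCEAL proteins are named for, 5 rose, 4 fell and 18 did not pass (median log2 fold change 0.05), and library totals alone gave 25 higher and 1 lower. The 5 became 2 without 113Q mouse 1 or 113Q mouse 3, and 3 without WT mouse 1, WT mouse 3 or 113Q mouse 2. Tcea3, a TFIIS gene, fell from 552 ± 24.3 to 288 ± 7.99 CPM (edgeR adjusted p = 9.26e-05), and Polr2a, the large subunit of RNA polymerase II, rose from 44.4 ± 5.16 to 101 ± 6.09 CPM (9.99e-05). Polr2a had the highest log2 fold change of the 5, at 1.19, near that of Tceal8 and below that of Tceal5.

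The denervation and satellite cell lists also moved in part. Of 14 tested denervation genes 7 rose, 1 (Chrne, the adult acetylcholine receptor subunit) fell and 6 did not pass (median log2 fold change 0.96), and the fall of Chrne was lost when any of the 113Q mice was left out. Library totals alone gave 10 higher and 0 lower. Chrna1, a subunit of the muscle acetylcholine receptor, rose from 25.3 ± 4.48 to 115 ± 7.20 CPM (edgeR adjusted p = 2.48e-05), and Runx1, a transcription factor induced by denervation, from 2.01 ± 0.433 to 8.67 ± 0.699 CPM (0.000153). Of 10 satellite cell markers 6 rose, 1 (Myod1) fell and 3 did not pass (median log2 fold change 0.55), and library totals alone gave 9 higher and 0 lower. Sdc4, a surface proteoglycan, rose from 16.5 ± 0.825 to 37.7 ± 3.50 CPM (edgeR adjusted p = 8.8e-05). The markers' summed level was 254, 203 and 239 CPM in WT against 284, 285 and 293 CPM in 113Q. Itga7, which did not pass, made up much of this sum (125, 92.0 and 122 CPM in WT, 123, 133 and 134 CPM in 113Q). The part of satellite cells in the members' levels was not tested.

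Of the other cell type lists, endothelial markers fell in 10 of 10 tested and fast fibre genes in 12 of 12, with 0 rises in either by edgeR, DESeq2 or voom, adjusted or at an unadjusted p below 0.05 in edgeR. By edgeR 18.1% of all genes tested fell. Library totals alone gave 2 endothelial rises and 0 falls, and 11 fast fibre falls. Of 10 fibroblast markers 0 passed in edgeR and voom and 2 were higher in DESeq2 and at an unadjusted p below 0.05, 3 rose without WT mouse 3, and 9 were higher with library totals alone. Of 9 macrophage markers 0 passed in edgeR, DESeq2 or voom, or unadjusted, 1 rose without WT mouse 3, and 7 were higher with library totals alone. Of 9 epithelial markers 0 passed in edgeR, DESeq2 or voom, or unadjusted, and 1 rose without 113Q mouse 1. Schwann cell markers had 2 rises and 1 fall among 11 tested, smooth muscle markers 2 and 1 among 12, and adipocyte markers 0 and 1 among 7. The smooth muscle fall was that of Des, which went from 6271 ± 208 to 4642 ± 483 CPM and made up most of that list's sum. The Schwann and smooth muscle shares that rose (18.2% and 16.7%) were near the 16.5% of all genes tested. DESeq2 gave 6 smooth muscle rises, as did an unadjusted p below 0.05 in edgeR, and library totals alone gave 12 smooth muscle and 7 Schwann rises. When single mice were left out, no more than 1 Schwann marker rose without any 1 mouse, 1 smooth muscle marker rose without WT mouse 2 or any 113Q mouse, and the adipocyte fall was lost without WT mouse 1, WT mouse 3, 113Q mouse 1 or 113Q mouse 2.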

How the data were processed

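The members, the gene lists and the tests were chosen with earlier results of these data known. Per the labels' protocols, total RNA was extracted from flash-frozen muscle and prepared with an mRNA kit. Per the submitters' processing notes, the authors' tools were FastQC 0.10.0, cutadapt, TopHat2 2.0.9, Bowtie2 2.1.0, Cufflinks and Cuffdiff 2.1.1, with build mm10. The deposited values are estimated counts per gene and mouse, not scaled to depth. Fractions made up 5.38% to 5.96% of each library's values, and all values were rounded to whole numbers. Neither annotation nor strandedness is given in the sources used here.

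Counts were fitted with edgeR 4.0.16 in R 4.3.3 (filterByExpr with a minimum count of 10, TMM factors, robust quasi-likelihood F test, two-sided, Benjamini-Hochberg over all 16960 genes, threshold 0.05), 113Q minus WT. The common biological coefficient of variation was 24.2%. The floor is 3 counts summed within a group and covers counting error only. Fold changes in times are ratios of mean CPM, and log2 fold changes and standard errors come from the fit.

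Of 26493 distinct symbols, 23706 matched GENCODE M21 by current name and 1989 by an older name, and 798 did not match. Shared sequence was counted as 50-base stretches of annotated transcripts, and exon lengths and overlaps came from merged exons. Genes to name were all members, all tested relatives, the genes of smallest p in each list (4 for a pathway or the X region, 2 for a cell type) the 5 nearest profiles, and Epcam and Acta2 as genes that differ between libraries; Ngfr, Morf4l2, Arxes2, Chrne, Myod1, Th, Chat, Snap25, Syt1, Syp, Stmn2, Itga7, Pafah1b2, Pepd and Ube2b were picked after their values were seen. Alternatives were DESeq2 1.42.0, limma 3.58.1 voom, RLE and upper-quartile factors, library totals, 2 other filters, a replicate block, an epithelial term and leaving out each mouse. The scripts were tested on simulated data. Some genes are not reported here, among them 1 tested gene of the X region that the plot of that region leaves out. Protein sequences and reads were not analysed here.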

Additional observations from a re-analysis of the deposited data

How the results depend on the processing

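Across 15 alternatives the 7 fitted members gave 105 log2 fold changes, of which 91 were positive; the negative ones were all those of Tceal1. Ranges were 2.57 to 3.58 for Bex1, 2.93 to 3.79 for Tceal5, 0.99 to 1.87 for Tceal8, 1.87 to 2.85 for Gprasp1, 3.20 to 4.11 for Gprasp2, 1.99 to 2.86 for Bhlhb9 and -0.23 to 0.55 for Tceal1. Library totals alone, which lift all genes, gave 11015 genes higher (93.9% of calls, against 47.6% with TMM) and 710 lower, a member median of 2.86 and 6 genes of the X region higher. They also turned the log2 fold changes of Tceal1 (0.55), Tceb3 (0.24), Rab7 (0.06), Calm2 (0.01), Cnp (0.33), Des (0.28), Tie1 (0.01), Fabp4 (0.03) and Lep (0.00). Lep turned to 0.07 with the epithelial term and to 0.61 without WT mouse 3 (-1.23 to 0.61 over the mice left out), and Tceal3 to -0.20 with voom, -0.25 without WT mouse 1 and -0.39 without 113Q mouse 1 (-0.39 to 0.43 over the mice left out). The cause was not tested. In the X region, voom gave 1 gene higher and 1 lower, and leaving out each mouse gave 1 to 2 higher and 0 to 1 lower. The 8 relatives that rose became 6 to 10, and 6 to 8 when a mouse was left out.

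With the replicate number as a block, 2154 genes were higher and 2583 lower, the member median was 2.13, 6 relatives and 1 gene of the X region were higher. Same-numbered mice deviated together with correlations across genes of 0.198, 0.236 and -0.274, not every mouse correlated best with its own number, and the numbers were not taken to pair the mice. Depth limits Bex2, Bex4, Bex6 and Tceal6, and 3 mice per group limit every value.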
